A study of Mus musculus with 9 samples.

Results

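The genes described here mark the endothelium of the lung, and in particular its capillaries. The set is 33 genes of the 52381 in the deposited table, chosen by symbol: 27 general endothelial members and 6 members known from aerocytes, the large capillary cells that lie against the alveolar gas-exchange surface. Each symbol had 1 row, and all 33 passed the filter on low values used for testing. Lung RNA was sequenced from 9 mice with acute lung injury caused by lipopolysaccharide (LPS), a bacterial outer membrane component. The 4 mice of the group called LPS-ALI had the injury alone, and the 5 of the group called TMAO were also given trimethylamine N-oxide, a metabolite formed from gut bacterial products. Every animal carried the LPS injury, and lungs without it are not analysed here. The sources used here do not give strain, genotype, age, sex, doses or times.

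Pulmonary capillaries form a thin sheet of endothelium that carries gas exchange and keeps plasma out of the airspace. General capillary cells act as progenitors and hold the lipase anchor Gpihbp1 and the apelin receptor, while aerocytes make apelin and the carbonic anhydrase Car4. Cell junctions built on VE-cadherin (Cdh5) and PECAM-1 (Pecam1) set the tightness of the sheet, and transcription factors of the ETS and SOX families maintain its identity. The title of the series concerns the integrity of this vascular barrier.

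Levels are in FPKM, which scales the reads of a gene by its length and by the size of the library. Differences are TMAO minus LPS-ALI on the log2(FPKM + 1) scale, which understates the change of low genes, and were tested with limma over 11817 genes. The median tested gene had a difference of -0.17 log2 units, so differences are given relative to it, while standard errors and p-values belong to the unshifted difference. The libraries were not alike. From the spacing of low values, depth relative to the deepest library (LPS-ALI replicate 3) was 0.495 to 0.768 for the rest of that group, 0.616 to 0.685 in TMAO replicates 1 to 4 and 0.379 in TMAO replicate 5. Mitochondrially encoded genes took up 33.4% to 52.2% of each library by FPKM, with the highest share in TMAO replicate 5. Library codes start with X for LPS-ALI replicates 3 and 4 and with B for all others. The sources used here do not say what the letter stands for. X occurs in the LPS-ALI group only and B in both, so the groups can also be compared within the B-coded libraries. The numbers after the B fall in separate ranges in each group, so that comparison does not part group from code number. Both results with all libraries and results without those X-coded libraries are therefore given.

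The defining markers of endothelium were present in every library. Pecam1 lay between 26.96 and 282 FPKM and Cdh5 between 12.7 and 152. Across the 33 members the mean over all libraries spanned 0.974 FPKM for Aplnr to 539 FPKM for Epas1. Since FPKM is scaled to gene length, these levels can be set side by side. Behind Epas1 came Egfl7 at 397, Tspan7 at 206, Cd36 at 194 and Tmem100 at 182 FPKM. At the low end were Gja5 at 2.85, Chst1 at 3.09, Mmrn2 at 4.36 and Apln at 4.97 FPKM.

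Promoters of 4 members are printed because these genes lay towards either end of the spread described below: Cd36 and Tspan7 were very low, and Car4 and Chst1 highest of all libraries, in the same lung. The outermost members of that spread, Sema3c and Gpihbp1, are not printed. Each run holds the 250 bases before a transcription start in RefSeq on GRCm38.p6, read 5′ to 3′ on the strand of the gene. Capitals mark CTTTGT or ACAAAG, a SOX-type string, in Cd36, and CTTCCT, the reverse complement of the ETS-type string AGGAAG, in Chst1. Tspan7 and Car4 held neither. The positions are chr5:17835897-17836146 (minus strand, at a start inside the annotated span of Cd36), chrX:10484866-10485115 (plus strand, Tspan7), chr11:84957504-84957753 (plus strand, Car4) and chr2:92600867-92601116 (plus strand, Chst1, also at a start inside the annotated span of its gene).
Cd36: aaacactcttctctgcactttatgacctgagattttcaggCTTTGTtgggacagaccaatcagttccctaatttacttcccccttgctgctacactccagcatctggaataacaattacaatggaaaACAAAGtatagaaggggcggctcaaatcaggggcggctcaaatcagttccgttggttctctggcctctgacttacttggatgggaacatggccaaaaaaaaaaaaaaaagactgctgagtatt
Tspan7: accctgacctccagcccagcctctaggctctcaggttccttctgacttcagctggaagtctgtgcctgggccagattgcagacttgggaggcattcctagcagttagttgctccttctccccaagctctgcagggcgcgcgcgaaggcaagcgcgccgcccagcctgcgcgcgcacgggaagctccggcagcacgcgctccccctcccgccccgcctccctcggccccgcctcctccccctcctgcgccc
Car4: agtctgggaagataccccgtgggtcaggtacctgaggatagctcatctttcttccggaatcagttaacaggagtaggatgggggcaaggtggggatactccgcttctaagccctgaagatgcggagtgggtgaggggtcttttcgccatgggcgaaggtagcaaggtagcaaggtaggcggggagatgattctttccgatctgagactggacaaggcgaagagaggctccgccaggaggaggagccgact
Chst1: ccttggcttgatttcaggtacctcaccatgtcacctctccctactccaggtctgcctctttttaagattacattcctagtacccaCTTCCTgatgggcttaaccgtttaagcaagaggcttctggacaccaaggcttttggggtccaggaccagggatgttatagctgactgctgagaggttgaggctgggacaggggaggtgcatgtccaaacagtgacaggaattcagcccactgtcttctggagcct

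Promoter windows were at hand for 16 of the 33 members, with 20 starts in all. Searching both strands, AGGAAG was in 8 of these 20 windows (7 genes: Apln, Chst1, Egfl7, Emcn, Erg, Gja5 and Robo4), against 29.5% of 32851 windows of the same length. ACAAAG was in 4 of 20 (Apln, Cd36, Egfl7 and Gja5), against 16.5%. The forkhead-type string TAAACA was in 1 of 20 (Clec14a), against 12.0%, and the hypoxia-type string ACGTG in 2 of 20 (Clec14a and Sema3c), against 16.6%. None of the 4 strings contains another, and a match is a run of letters, not a shown binding site.

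Between TMAO and LPS-ALI lungs, 25 of the 33 members lay above the median gene and 8 below it, with a median difference of 0.47 for the 27 general members and 0.22 for the 6 aerocyte members. None of the 33 passed an adjusted limma p of 0.05 (0% of all tested genes did), and the smallest adjusted p of a member was 0.998. At an unadjusted limma p under 0.05, 1 member was higher, Tmem100, against 0.423% of all tested genes, and 0 were lower, against 2.93%. No member separated the groups without overlap, where 0.118% of tested genes did with TMAO higher and 1.36% with TMAO lower. A difference above 0.5, a size chosen after the values were seen, was found for 13 of 33 members and 6.85% of all tested genes. Below -0.5 the counts were 0 of 33 and 7.51%. The higher values depended on which lungs were kept. Without the 2 X-coded lungs, which leaves LPS-ALI replicates 1 and 2, 16 members lay above and 17 below the median gene. Then 1 exceeded 0.5 (against 4.8% of tested genes), and the medians were -0.05 and 0.03. Without LPS-ALI replicate 4 alone, 5 members exceeded 0.5 (against 4.07%) and the general median was 0.18. Without LPS-ALI replicate 3 alone the general median was 0.39. Without LPS-ALI replicate 4 and TMAO replicate 5, 26 members lay above and 7 below the median gene. In that setting 6 were higher at an unadjusted limma p under 0.05 (4.42% of tested genes were), with none past adjustment. In whole lung, fewer endothelial cells and less RNA per cell cannot be told apart.

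**Figure D1:**
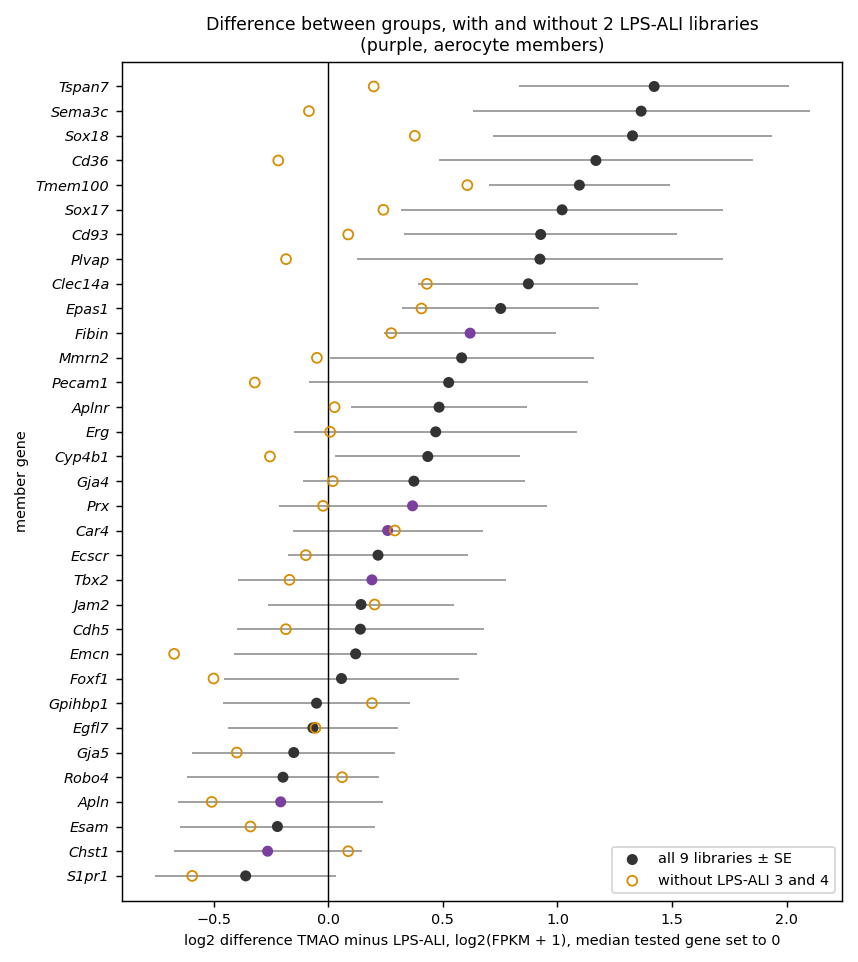
Log2 difference of each of the 33 members between TMAO and LPS-ALI lungs, on the log2(FPKM + 1) scale with the median tested gene at 0. Filled points with bars are the estimate ± SE from all 9 libraries (purple for the 6 aerocyte members), and open points leave out LPS-ALI replicates 3 and 4. The filled points run from -0.36 for S1pr1 to 1.42 for Tspan7, and most open points lie nearer to 0.

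Junction genes had a median difference of 0.14, with 4 of 6 above the median gene and none past its test. Pecam1, an adhesion molecule of endothelium that platelets and leukocytes also carry (chromosome 11, 106654217 to 106750628 of GRCm38), had 163.1, 181, 89.4 and 26.96 FPKM in LPS-ALI replicates 1 to 4. In TMAO replicates 1 to 5 it had 147, 151, 122, 282 and 29.9 FPKM. The 2 lowest lungs thus came from different groups, and the relative difference of 0.53 (SE 0.61) was -0.32 without the X-coded lungs. Cdh5, the VE-cadherin gene (chromosome 8, 104101625 to 104144511), had 68.7, 65.6, 30.3 and 52.1 FPKM with LPS alone and 62.3, 62.1, 43.0, 152 and 12.7 with TMAO. LPS-ALI replicate 4, the lowest of all for Pecam1, was not low for Cdh5. The Cdh5 difference was 0.14 (SE 0.54).

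Other junction members lay close to the median gene. Esam, an adhesion molecule of endothelial tight junctions, averaged 53.8 ± 10.2 FPKM (SD, n = 4) with LPS alone and 46.1 ± 24.5 (SD, n = 5) with TMAO, with a difference of -0.22. Jam2, a junctional adhesion molecule, averaged 8.25 ± 1.24 and 8.92 ± 4.10 FPKM, a difference of 0.14. The gap junction genes Gja4 and Gja5, which encode connexins typical of arterial endothelium, parted in sign but within their errors. Gja4 had 7.23 ± 2.85 and 9.73 ± 6.33 FPKM (difference 0.37, SE 0.48). Gja5 had 3.48 ± 2.17 and 2.35 ± 1.13 FPKM (difference -0.15, SE 0.44). LPS-ALI replicate 4 held 0.53 FPKM of Gja5 against 3.70 to 5.74 in the other LPS-ALI lungs.

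Among surface and secreted members the widest difference belonged to Tspan7, a tetraspanin gene (chromosome X, 10485158 to 10596605). It had 229, 250, 70.3 and 22.99 FPKM in LPS-ALI replicates 1 to 4 and 257, 299, 208, 404 and 114 in TMAO replicates 1 to 5. Its relative difference of 1.42 (SE 0.59) was 0.20 without the X-coded lungs. All 5 TMAO lungs exceeded those 2 libraries, while LPS-ALI replicates 1 and 2 fell inside the TMAO range.

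Cd93 and Clec14a are related C-type lectin-like receptors of endothelium, and both bind the matrix protein made from Mmrn2. Cd93 had 58.6, 77.4, 31.9 and 11.2 FPKM with LPS alone and 82.1, 69.6, 49.4, 165.1 and 18.5 with TMAO, a difference of 0.93 (SE 0.60) that was 0.09 without the X-coded lungs. Clec14a had 18.7, 23.5, 15.4 and 6.62 FPKM against 26.6, 30.7, 30.1, 44.6 and 7.74. For Clec14a, TMAO replicates 1 to 4 lay above every LPS-ALI lung and TMAO replicate 5 below 3 of them. Its difference was 0.87 (SE 0.48) and 0.43 without the X-coded lungs. Mmrn2 was low, at 0.50 FPKM for LPS-ALI replicate 4, 2.48 to 5.39 for its group otherwise and 0.68 to 13.3 with TMAO.

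Plvap forms the diaphragms of fenestrae and caveolae. It had 93.9, 117, 53.6 and 7.4 FPKM with LPS alone and 109, 116, 92.9, 219 and 11.5 with TMAO. Its low values sat in the same pair of lungs as those of Pecam1, and its difference of 0.92 (SE 0.80) was -0.18 without the X-coded lungs. Emcn, for the sialomucin endomucin, had 98.1, 65.3, 23.6 and 25.2 FPKM against 51.5, 69.5, 19.1, 93.3 and 22.1. The Emcn difference turned from 0.12 to -0.67 when the X-coded lungs were left out. Egfl7, a secreted endothelial factor, averaged 417 ± 102 and 380 ± 165.02 FPKM (difference -0.07), and Ecscr 54.7 ± 19.2 and 56.9 ± 24.1 (difference 0.22). Robo4, a guidance receptor that steadies endothelial barriers, ran against its neighbours at 15.4 FPKM for LPS-ALI replicate 4 and 6.95 to 8.48 for its group otherwise. In TMAO lungs Robo4 had 3.02 to 15.07 FPKM, a difference of -0.20.

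Signalling members ran from the lowest of all 33 differences to 1.37. Tmem100, a membrane protein gene downstream of BMP9 and ALK1 in endothelium (chromosome 11, 90030348 to 90036508), had 150, 179, 58.2 and 104 FPKM in LPS-ALI replicates 1 to 4. It had 276, 243, 213, 315 and 103 FPKM in TMAO replicates 1 to 5. TMAO replicates 1 to 4 lay above every LPS-ALI lung, and replicate 5 lay within the LPS-ALI range. Its difference was 1.10 (SE 0.39, limma adjusted p = 0.998), and it was 0.61 without the X-coded lungs. Over 23 alternative settings the Tmem100 difference stayed between 0.61 and 1.33, with limma adjusted p from 0.219 to 1.00.

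S1pr1, the sphingosine-1-phosphate receptor that strengthens endothelial junctions (chromosome 3, 115710433 to 115715072), was the lowest of the 33 differences. It had 83.5, 108, 54.2 and 76.2 FPKM with LPS alone and 47.8, 62.5, 58.9, 106 and 24.03 with TMAO, with overlap. The difference was -0.36 (SE 0.40), and it stayed between -0.67 and -0.20 over the 23 alternatives with limma adjusted p from 0.146 to 1.00. With libraries weighted by quality it was lower at an unadjusted limma p under 0.05, as were 8.91% of all tested genes. Sema3c, a secreted semaphorin, had 98.3, 75.1, 22.7 and 4.05 FPKM with LPS alone and 97.3, 97.0, 42.1, 153 and 26.5 with TMAO. Its difference of 1.37 (SE 0.74) came down to -0.08 without the X-coded lungs. Aplnr, the apelin receptor of general capillary cells, had 1.56, 0.99, 0.21 and 0.05 FPKM in LPS-ALI. In TMAO lungs it had 1.77, 1.46, 0.32 and 2.41 FPKM and was listed at 0 in replicate 5, so its values are near the limit of these libraries.

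**Figure D2:**
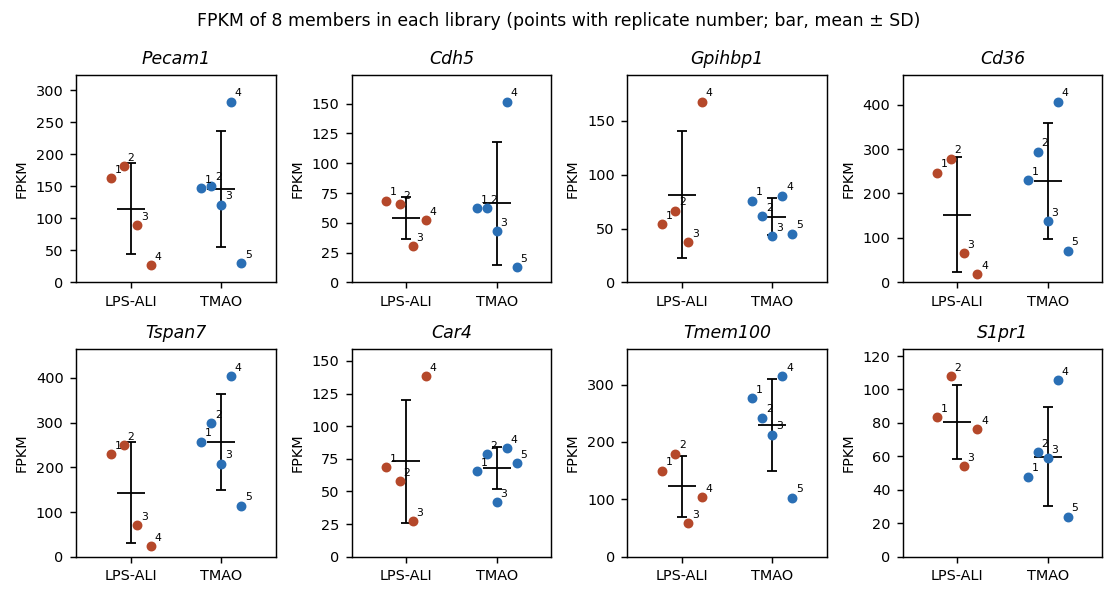
FPKM of 8 members in each library, with LPS-ALI in red and TMAO in blue, the replicate number at each point, and bars for the mean ± SD of 4 and 5 lungs. LPS-ALI replicate 4 is the lowest lung for Pecam1, Cd36 and Tspan7 and the highest for Gpihbp1 and Car4, and TMAO replicate 4 is the highest for Pecam1, Cdh5, Cd36, Tspan7 and Tmem100.

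Lipid-handling members pulled apart within single lungs. Gpihbp1 anchors lipoprotein lipase to the capillary wall and lies on chromosome 15 from 75596628 to 75599481. It had 54.3, 66.8, 37.3 and 168 FPKM with LPS alone and 75.9, 61.6, 42.8, 80.5 and 45.1 with TMAO, a difference of -0.05. Cd36, a fatty acid receptor also carried by macrophages and platelets, had 247, 278, 65.5 and 18.7 FPKM with LPS alone and 230, 294, 138, 406 and 71.8 with TMAO. Its difference of 1.17 (SE 0.69) was -0.22 without the X-coded lungs. The lung with the most Gpihbp1 thus had the least Cd36. Cyp4b1, a cytochrome P450 gene shared with airway and alveolar epithelium, averaged 94.4 ± 52.1 and 102 ± 23.2 FPKM (difference 0.43).

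All 5 transcription factors among the general members lay above the median gene, with differences of 0.06 to 1.33 and none past its test. Sox18 and Sox17 encode related SOX factors of vascular development. Sox18 had 68.3, 60.8, 41.5 and 5.38 FPKM with LPS alone and 80.9, 77.1, 88.2, 120 and 29.7 with TMAO (difference 1.33, SE 0.61). TMAO replicates 1 to 4 were above every LPS-ALI lung, and the difference was 0.38 without the X-coded lungs. Sox17 had 30.3, 26.98, 26.9 and 2.19 FPKM against 42.0, 41.4, 26.3, 67.4 and 6.32. Its value in LPS-ALI replicate 4 stood far below the 3 others of the group, which lay close together.

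Erg, the ETS factor that keeps endothelial identity, had 67.98, 52.3, 28.5 and 29.6 FPKM with LPS alone and 61.2, 72.5, 69.4, 140 and 7.84 with TMAO, a difference of 0.47 (SE 0.62). Epas1, which encodes the hypoxia-inducible factor HIF-2alpha, had 501, 489, 297 and 279 FPKM against 717, 659, 573, 1147 and 187. Again TMAO replicates 1 to 4 exceeded every LPS-ALI lung while replicate 5 was the lowest of all 9. The Epas1 difference was 0.75 (SE 0.43) and 0.41 without the X-coded lungs. Foxf1, a forkhead factor of lung endothelium and mesenchyme, had 70.6 ± 32.7 and 71.9 ± 40.6 FPKM (difference 0.06). In all, 4 members (Clec14a, Tmem100, Sox18 and Epas1) had TMAO replicates 1 to 4 above every LPS-ALI lung, a pattern seen after TMAO replicate 5 was set aside and held by 2.92% of all tested genes.

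The aerocyte members did not move as a block. Car4, which speeds the hydration of carbon dioxide at the capillary wall, had 68.5, 57.7, 27.2 and 139 FPKM with LPS alone and 65.7, 78.4, 41.6, 83.3 and 71.8 with TMAO (difference 0.26, SE 0.41). Both extremes were LPS-ALI lungs, and they were the 2 X-coded ones. Apln, the ligand of Aplnr, had 7.17, 6.85, 2.34 and 6.36 FPKM with LPS alone and 4.54, 3.85, 4.88, 7.82 and 0.93 with TMAO (difference -0.21, SE 0.45). Prx, for periaxin, averaged 44.5 ± 16.7 and 63.1 ± 41.6 FPKM (difference 0.37), and Tbx2, a T-box factor, 19.3 ± 8.22 and 22.6 ± 13.7 (difference 0.19). Fibin averaged 8.48 ± 3.05 and 12.0 ± 3.81 FPKM (difference 0.62, SE 0.37). Chst1, a sulfotransferase gene, had 2.49, 2.57, 2.05 and 8.56 FPKM with LPS alone and 0.81 to 4.10 with TMAO (difference -0.26).

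To see how the members lay in each lung, every library was set against the median of the other 8, with its own median tested gene at 0. Their median was -0.02, 0.20, -0.59 and -1.12 log2 units in LPS-ALI replicates 1 to 4 and 0.33, 0.17, -0.08, 0.50 and -0.40 in TMAO replicates 1 to 5. LPS-ALI replicates 1 and 2 fell inside the TMAO range for 29 of 33 members, as FPKM (72.1% of all tested genes). LPS-ALI replicates 3 and 4 were both below replicates 1 and 2 for 24 members (26.2% of all tested genes). TMAO replicate 4 had the highest FPKM of all lungs for 23 members (39.4% of all tested genes), and TMAO replicate 5 the lowest for 15 (74.3%). In LPS-ALI replicate 4, 20 of 33 members lay more than 1 log2 unit below the other libraries (9.87% of all tested genes did) and 2, Gpihbp1 and Chst1, more than 1 above (7.94%). In LPS-ALI replicate 3, 7 members lay that far below (2.4% of tested genes), and in TMAO replicate 5 also 7 (6.47%).

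**Figure D3:**
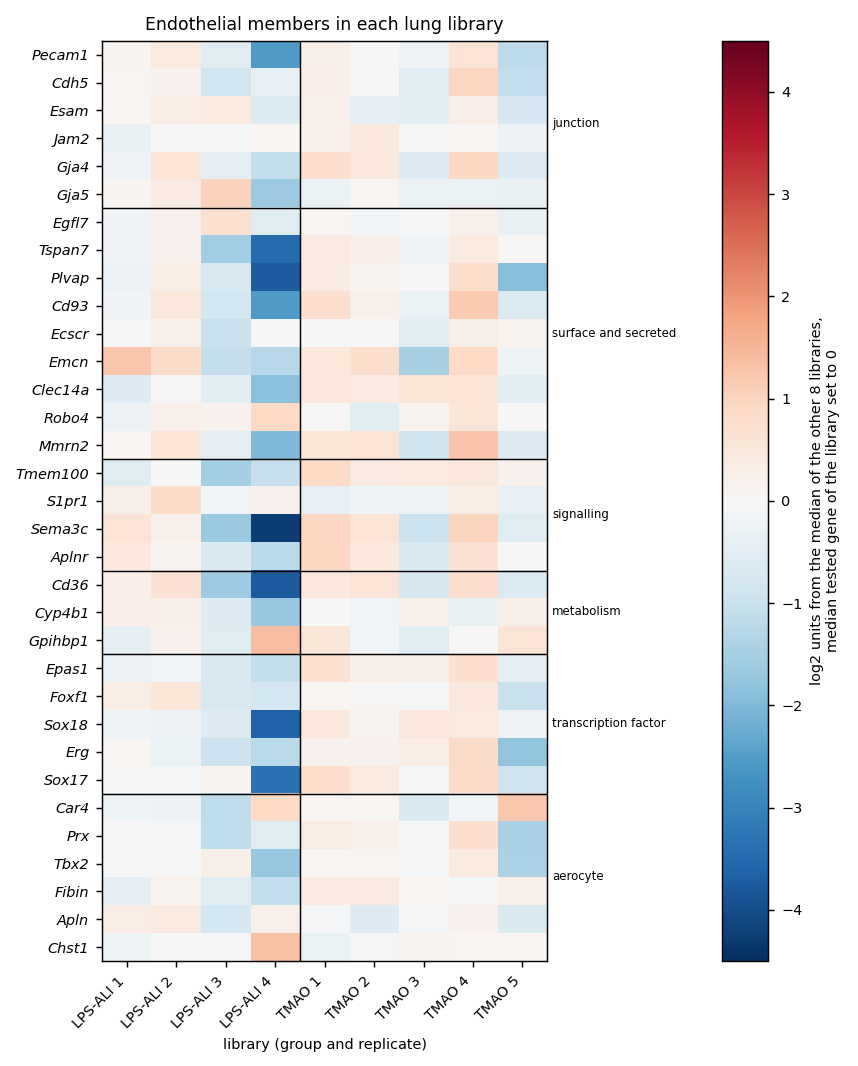
Each row is a member, grouped by role, and each column a library, with the vertical line between LPS-ALI and TMAO. Colour gives log2 units from the median of the other 8 libraries with the median tested gene of the library at 0. The column of LPS-ALI replicate 4 runs from -4.22 for Sema3c to 1.39 for Gpihbp1, the widest spread of the 9.

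Within LPS-ALI replicate 4 the members lay far apart. There Sema3c stood at -4.22, Cd36 and Plvap at -3.73, Sox18 at -3.66, Tspan7 at -3.45, Sox17 at -3.34 and Pecam1 at -2.55. In the same lung Cdh5 stood at -0.38, Ecscr at -0.08, S1pr1 at 0.19, Robo4 at 0.88, Car4 at 0.91, Chst1 at 1.31 and Gpihbp1 at 1.39. The interquartile range of the members was 1.61 log2 units there, against 0.89 over all tested genes, and 0.38 to 0.80 for the members in the other 8 libraries. Ratios within a lung describe the same values in another form: the pairs were chosen after those values were seen, so they add no support. Of 14 ratios computed, 8 were lowest or highest in LPS-ALI replicate 4 and 6 were not, and 4 of the 8 are given. Cdh5 to Pecam1 was 0.34 to 0.54 in 8 lungs but 1.93 in LPS-ALI replicate 4. Gpihbp1 to Cd36 was 9.00 there and 0.20 to 0.63 elsewhere. Robo4 to Cd93 was 1.37 against 0.08 to 0.23, and Plvap to Cdh5 was 0.14 against 0.91 to 2.16.

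**Figure D4:**
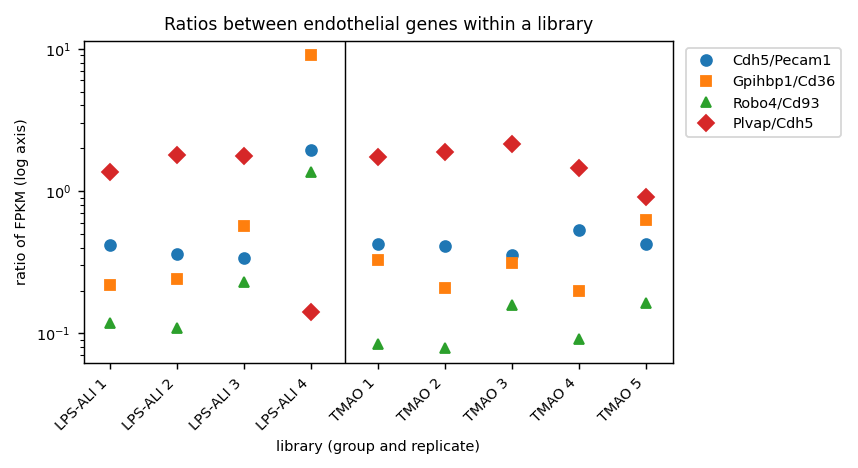
Ratio of FPKM between 2 endothelial members in each of the 9 lungs, on a log axis, with the vertical line between LPS-ALI and TMAO. The 4 pairs were picked for their values in LPS-ALI replicate 4, where Cdh5 to Pecam1 is 1.93, Gpihbp1 to Cd36 is 9.00, Robo4 to Cd93 is 1.37 and Plvap to Cdh5 is 0.14.

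In TMAO replicate 5, the shallowest library, members also lay apart. Plvap, Erg, Prx, Tbx2 and Pecam1 stood at -1.91, -1.78, -1.46, -1.43 and -1.17, while Car4 stood at 1.21 and Gpihbp1 at 0.62. These genes lay on the same side in LPS-ALI replicate 4, at -3.73, -1.23, -0.53, -1.70, -2.55, 0.91 and 1.39. Some other members did not, such as Cyp4b1, at 0.26 in TMAO replicate 5 and -1.71 in LPS-ALI replicate 4. Its Car4 to Prx ratio was 8.24, against 0.67 to 3.25 in the other lungs. Without TMAO replicate 5, 9 members were higher in TMAO at an unadjusted limma p under 0.05 (4.27% of all tested genes were). They were Cd93, Clec14a, Epas1, Erg, Fibin, Prx, Sox18, Tmem100 and Tspan7. None of these passed adjustment, with 0.545 as the smallest adjusted limma p. With median-of-ratios scaling of all 9 libraries the count was 6 (3.09% of tested genes), again with none past adjustment.

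Values of other cell types moved with these lungs, and their part in the results was not tested. In LPS-ALI replicate 4 the 7 haemoglobin and red cell genes summed to 2327 FPKM, against at most 240 with LPS alone otherwise and 124 to 291 with TMAO. Its 9 alveolar type 2 markers summed to 1129 FPKM, against 7589 to 14297 and 4837 to 10653. The 8 alveolar type 1 markers summed to 2869 there, against 665 to 1487 and 618 to 1171. Hopx held 2127 of this sum, against 252 to 619 in the other lungs, and the remaining 7 summed to 743, within their range of 199.9 to 869 elsewhere. The 8 lymphatic endothelial markers summed to 695, against 92.6 to 153 and 46.9 to 200, of which Lyve1 held 656. The 8 platelet genes, whose cells also carry Pecam1 and Cd36, summed to 31.0 to 74.2 FPKM with LPS alone and 17.7 to 27.3 with TMAO. The sum of 74.2 was that of LPS-ALI replicate 4, the lung with the lowest Pecam1 and Cd36. The 7 general leukocyte genes summed to 616 to 684 and 397 to 582. The 8 markers of ciliated cells, an airway type, summed to 142 and 217 FPKM in LPS-ALI replicates 3 and 4, 126 and 76.5 in replicates 1 and 2 and 54.0 to 108 with TMAO. Of 6 tested, 0 lay above the median gene and 5 were lower at an unadjusted limma p under 0.05, against 2.93% of all tested genes. The median of these ciliated genes was -0.93, or -0.07 without the X-coded lungs. Relative to the median gene, 9 of 9 tested alveolar type 2 genes, 3 of 8 type 1, 1 of 7 leukocyte, 0 of 5 red cell and 0 of 3 platelet genes lay above it. Without the X-coded lungs these counts were 0, 2, 1, 2 and 0, and the alveolar type 2 median turned from 0.28 to -0.64. None of these markers was listed at 0 in all libraries. Across the 33 members, the deviation of LPS-ALI replicate 3 had a Pearson correlation of 0.52 with transcript GC content, and 0.20 over 11808 tested genes. In LPS-ALI replicate 4 the values were 0.21 and -0.05, and in TMAO replicate 2 they were -0.45 and -0.06. Among the members the remaining lungs ran from -0.29 (TMAO replicate 5) to 0.28 (TMAO replicate 3). Genes in 1 library share its depth and preparation, so these are descriptions.

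Endothelial genes outside the set were described in the same way. Of 33 further pan-endothelial genes, 29 lay above the median gene and 4 below (17 and 16 without the X-coded lungs). Their median difference was 0.53, against 0.07 without the X-coded lungs. At an unadjusted limma p under 0.05 there were 0 of them, where 0.423% of all tested genes were higher and 2.93% lower. The 4 with the smallest p were Sox7, a SOX factor close to Sox17 and Sox18, Cavin2, a caveolar coat gene, Ramp2, a subunit of the adrenomedullin receptor, and Icam2, an adhesion ligand for leukocytes. Sox7 had 25.2, 23.7, 13.0 and 3.87 FPKM with LPS alone and 39.6, 40.2, 32.9, 62.3 and 8.40 with TMAO, a difference of 1.31 and of 0.55 without the X-coded lungs. Cavin2, Ramp2 and Icam2 had differences of 1.31, 1.20 and 1.29, against 0.27, 0.29 and 0.07 without those lungs.

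Further aerocyte genes (6 of 7 tested) had a median of 0.47 (-0.02 without the X-coded lungs), and 5 lay above the median gene. Fmo1, a flavin monooxygenase gene, had 92.1 ± 41.0 FPKM with LPS alone and 151 ± 41.2 with TMAO (difference 0.97, and 0.49 without the X-coded lungs). Nckap5 had 10.04 ± 7.88 and 15.2 ± 7.70 FPKM (difference 0.99, and -0.01 without those lungs). Ednrb, the endothelin B receptor of aerocytes, had 2.97 ± 0.842 FPKM with LPS alone and 4.17 ± 1.06 with TMAO (difference 0.55). Of 7 tested arterial genes 6 lay above the median gene, with a median of 0.27 that was -0.02 without the X-coded lungs, when 3 lay above. Hey1, a Notch target of arterial endothelium, had 16.5, 16.4, 8.68 and 3.86 FPKM with LPS alone and 29.9, 27.5, 22.4, 37.8 and 10.3 with TMAO. Its difference was 1.34, and 0.71 without the X-coded lungs, and it was the 1 arterial gene with an unadjusted limma p under 0.05 (adjusted p = 0.998). Over all tested genes 0.423% were higher and 2.93% lower at that threshold, shares that also stand beside the venous and lymphatic genes below. Of 8 venous genes 6 lay above, with a median of 0.36 that was 0.12 without the X-coded lungs and -0.05 without LPS-ALI replicate 4. The transporter gene Slc6a2 had 0.425 ± 0.287 and 1.604 ± 0.819 FPKM (difference 0.99), and Selp, the P-selectin gene that platelets share, 9.21 ± 3.55 and 4.00 ± 3.49 (difference -1.08). Both had an unadjusted limma p under 0.05 and an adjusted p of 0.998. Slc6a2 was below 1 FPKM in every LPS-ALI lung. It passed the filter on low values only through TMAO replicates 1 to 4, so its p-value adds no support. Lymphatic genes split, with 3 of 6 tested above the median gene and a median of -0.14 that was 0.22 without the X-coded lungs. Pdpn, for podoplanin, which alveolar type 1 cells share, had 18.4 ± 3.56 and 8.36 ± 2.76 FPKM (difference -0.92), with an unadjusted limma p under 0.05 and an adjusted p of 0.998.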

How the data were processed

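Lung RNA of 9 mice was sequenced after ribosomal RNA depletion, per the labels' protocols, whose extraction text names platelets while tissue and source name lung. fastp, HISAT2, SAMtools and featureCounts are named, with mm10 and no versions, per the submitters' processing notes. The sources used here do not give their roles, annotation, strandedness or gene lengths. The deposited values are FPKM, made by the authors, rounded to 2 decimals, 1 column per library, and no column was left out. Read totals are not given, so counting intervals stay unknown.

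Samples were grouped by their titles. Values were tested as log2(FPKM + 1) with limma 3.58.1 in R 4.3.3 (mean-variance trend, two-sided, Benjamini-Hochberg adjustment over all genes, threshold 0.05) over the 11817 genes reaching an FPKM of 1 in 4 or more libraries. All members and lists were chosen with earlier results of these data known. All 33 members are named, and from other lists up to 4 genes, taken in order of their unadjusted p. Hopx and Lyve1, which lead a marker sum, were singled out after their values were seen. Nothing says that mice came from separate litters or days, so p-values measure the spread between these samples. At most 63 tested genes had the same value in a pair of libraries, so none was a copy. Coordinates, lengths and GC content come from GENCODE M21 (GRCm38, the assembly of mm10), to which 52125 of 52381 identifiers matched. Relative depth is the commonest ratio of 2 libraries over sparse genes, those detected in no more than 5. Alternatives were other pseudocounts, filters, scalings, variance models, library weights, the mouse number as a block, and leaving out libraries. In simulated data for this comparison over 11817 genes, 2% of 100 genes with a 2-fold change and 60% of 100 with a 4-fold change were called, beside 2 false calls. Each simulated gene was drawn separately, without the shifts that genes of a real library share, so these figures need not hold for the real libraries. Figures were drawn with matplotlib 3.10.9 in Python 3.11.15.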

Additional observations from a re-analysis of the deposited data

Results flagged for a closer look

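In 8 of 66 examined groups of values (33 members in each of the 2 groups of lungs, on the log2 scale) 1 library stood apart by Dixon's criterion, which chance alone meets in about 1 in 20 groups. LPS-ALI replicate 4 was apart from the other LPS-ALI lungs for Sox17 (2.19 FPKM), Tbx2 (7.04 FPKM) and Esam (38.7 FPKM), all low, and for Chst1 (8.56 FPKM), which was high. LPS-ALI replicate 3 was apart and low for Ecscr (26.2 FPKM) and Apln (2.34 FPKM). TMAO replicate 5 was apart and low for Cyp4b1 (61.8 FPKM) and Tbx2 (3.10 FPKM). The members of a lung share its library, so these are not separate events.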

How the results depend on the processing

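No member passed an adjusted limma p of 0.05 under any of the 23 alternatives. Over all tested genes 0 passed (50 higher and 346 lower at an unadjusted p), with 51 under library weights and 0 to 3 when libraries were left out. Members at an unadjusted p numbered 1, and 6 under median-of-ratios scaling, 4 under quantile normalization and 2 with mitochondrial genes removed, all higher, beside 3.09%, 3.73% and 0.564% of all tested genes. Under library weights 4 did so, 3 higher and 1 lower. The share higher was 9.09% of members against 4.92% of all tested genes, while 8.91% of all tested genes were lower. In either direction the share of all tested genes was 13.8%, and only with both directions pooled was the share of members no larger. The count was 0 without the X-coded lungs (0.152% of genes higher) and 0 to 9 when libraries were left out (0.228% to 4.42%). With the mouse number as a replicate block, in which TMAO replicate 5 has no partner and does not enter the difference, 8 members were higher at an unadjusted p, beside 3.16% of all tested genes. Same-numbered mice correlated at -0.13 to 0.06 over tested genes, as deviations from their group means. Single unusual libraries weigh on such values, so they cannot show whether the numbers pair the animals. The general median of 0.47 turned to -0.054 under library weights and to -0.050 without the X-coded lungs. The aerocyte median kept its sign in all 23.

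Among member values under alternatives 700 kept their direction and 54 turned, and the cause was not tested. Under library weights these were Cd36 (-0.0095), Cdh5 (-0.093), Cyp4b1 (-0.054), Ecscr (-0.18), Emcn (-0.60), Foxf1 (-0.27), Gja4 (-0.057), Mmrn2 (-0.15) and Pecam1 (-0.090). Without the X-coded lungs they were Cd36 (-0.22), Cdh5 (-0.19), Chst1 (0.087), Cyp4b1 (-0.25), Ecscr (-0.098), Emcn (-0.67), Foxf1 (-0.50), Gpihbp1 (0.19), Mmrn2 (-0.050), Pecam1 (-0.32), Plvap (-0.18), Prx (-0.023), Robo4 (0.060), Sema3c (-0.084) and Tbx2 (-0.17). Gpihbp1 became 0.014 under median-of-ratios scaling, 0.012 under quantile normalization and 0.013 with a pseudocount of 0.1. Egfl7 became 0.011 under quantile normalization and 0.030 under the block, and Foxf1 -0.061 without a filter. When libraries were left out the ranges were -0.12 to 0.40 for Cdh5, -0.64 to 0.17 for Gja5, -0.18 to 0.45 for Emcn, -0.036 to 0.35 for Ecscr and -0.26 to 0.13 for Egfl7. They were -0.14 to 0.30 for Foxf1, -0.068 to 0.60 for Car4, -0.092 to 0.86 for Pecam1, -0.28 to 0.33 for Gpihbp1, -0.25 to 0.52 for Tbx2, -0.41 to 0.074 for Chst1, -0.35 to 0.015 for Robo4 and -0.040 to 0.67 for Cyp4b1. By contrast 11 members (Aplnr, Cd93, Clec14a, Epas1, Erg, Fibin, Jam2, Sox17, Sox18, Tmem100 and Tspan7) stayed above the median gene in all settings run, and Apln, Esam and S1pr1 below it. Some did so only barely: the lowest difference was 0.0081 for Erg, 0.024 for Jam2, 0.027 for Aplnr and 0.087 for Cd93. The highest was -0.062 for Apln and -0.082 for Esam. Members with low FPKM, such as Aplnr, Gja5 and Mmrn2, are limited by depth.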
